A study of Drosophila melanogaster with 33 samples.

Results

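The binding sites of the 2 main Polycomb complexes were compared within S2-DRSC cells through the peak lists of dRing, a subunit of Polycomb repressive complex 1 (PRC1), and of E(z), the catalytic subunit of Polycomb repressive complex 2 (PRC2). Peaks on chromosomes M, U, Uextra and those ending in Het were left out, which kept the 6 arms (X, 2L, 2R, 3L, 3R and 4). Overlapping peaks of the 2 lists were then joined into regions, and an overlap of 1 bp was enough. This gave 5216 regions, made from 7370 of the 11510 peaks in the 2 lists and of the 94396 peaks in the 13 lists of the series. Of these regions, 2020 held peaks of both factors (shared regions), 938 held dRing alone and 2258 held E(z) alone.

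The study mapped chromatin proteins by ChIP-seq in S2-DRSC cells, a late embryo-derived Drosophila melanogaster line labelled wild type, and in S2-DRSC cells that stably express the HA-tagged Hox protein AbdA. All cells, S2-DRSC cells included, received 10 µM copper sulphate for 24 h. The 33 samples form 18 groups, and dRing S2 and E(z) S2 had 2 samples each, as did Rpb3, Ser2P, M1BP and GAF in S2 cells. The dRing antibody was made for the study and the E(z) antibody was a commercial one, per the labels, and all 6 factors in S2 cells had the same input code. The files held 1 list per antibody and line, so replicates could not be compared and no test over samples was possible. Intervals below are exact Clopper-Pearson 95% intervals and cover counting error over the regions of these lists only. All intervals count each region as independent, although many regions lay close to another, so they may be too narrow. The read depth behind each peak is unknown, and a peak missing from a list may lie below the caller's threshold. The lists hold no measure of cell identity, so the S2 label could not be checked against marker genes. Positions are on build dm3, 1-based, and no gene was assigned because no annotation of that build was used here.

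Polycomb proteins keep developmental genes, the Hox genes among them, silent in cells that should not express them. E(z) methylates a lysine of histone H3, and the Polycomb subunit of PRC1 binds that methylated lysine. dRing is a ubiquitin ligase for histone H2A. In flies the complexes are recruited to Polycomb response elements, at which GAF (GAGA factor) is among the known DNA-binding proteins. M1BP (Motif 1 binding protein) binds the promoters of many constitutively active genes. Rpb3 belongs to the core of RNA polymerase II and marks the enzyme whether paused or moving, whereas phosphorylation of serine 2 in the tail of its largest subunit (Ser2P) marks elongating polymerase.

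Most dRing peaks lay on E(z), and fewer than that share of E(z) peaks lay on dRing. Of the 3061 dRing peaks on the arms, 2123 overlapped an E(z) peak (69.4%, 95% interval 67.7 to 71.0%). Of the 4309 E(z) peaks, 2051 overlapped a dRing peak (47.6%, 95% interval 46.1 to 49.1%). The E(z) list is the longer one, so its share has the lower ceiling. With the E(z) list limited by score to the length of the dRing list, the shares were 57.0% and 54.5%, closer to each other. In bases, the lists shared 1.36 Mb, which was 69.1% of the dRing length and 51.2% of the E(z) length, with a Jaccard index of 0.417. As shares of all regions, 38.7% were shared (95% interval 37.4 to 40.1%), 18.0% held dRing alone (16.9 to 19.1%) and 43.3% held E(z) alone (41.9 to 44.6%).

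Where both complexes had a peak, the peaks lay nearly on top of each other. Among the 1913 shared regions made of 1 peak of each factor, the centres were a median of 28 bp apart, and 95.7% of the pairs had centres within 250 bp. The dRing peak of these pairs had a median width of 441 bp and the E(z) peak 453 bp, and the E(z) peak was the wider in 57.3% of pairs. The dRing peak lay wholly within the E(z) peak in 691 pairs, and the E(z) peak lay wholly within the dRing peak in 468. The other 107 shared regions chained several peaks, up to 4 of dRing or 3 of E(z).

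The rule of 1 bp left few regions near its border. The smallest overlap in a pair was 116 bp and the median was 380 bp, so that no pair was joined by fewer than 50 bp. On the other side, none of the peaks without a partner ended within 50 bp of the other factor. A further peak of the other factor lay within 250 bp of 42 dRing-alone regions and of 97 E(z)-alone regions, and within 1 kb of 154 (16.4%) and 340 (15.1%). The median distance from a dRing-alone region to the nearest E(z) peak was 7438 bp, and from an E(z)-alone region to the nearest dRing peak 10953 bp.

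The 6 arms carried the classes in similar proportions. Shared regions made up 37.6% of the 986 regions on 2R, 38.2% of the 1250 on 3R, 38.3% of the 1097 on 2L, 38.8% of the 1121 on 3L and 41.5% of the 709 on X. The intervals of these 5 arms overlapped, at 34.6 to 40.7% on 2R and 37.8 to 45.2% on X. E(z)-alone regions made up 40.9% of the X regions (37.3 to 44.6%) and 44.5% of the 3R regions (41.7 to 47.3%). The small chromosome 4 held 53 regions, of which 22 were shared, 14 held dRing alone and 17 held E(z) alone.

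Shared regions were wider than regions of 1 factor. Their median width was 556 bp (quartiles 370 and 947 bp), against 362.5 bp for dRing alone (269 and 523 bp) and 363 bp for E(z) alone (268 and 517 bp). A joined region spans 2 peaks and is wider by construction, but the peaks themselves showed the same order. dRing peaks with E(z) had a median width of 473 bp and those without it 362.5 bp, and E(z) peaks with dRing had a median of 473 bp and those without it 363 bp. Regions over 2000 bp wide numbered 136 among the shared ones (6.73%), 32 among E(z) alone (1.42%) and 4 among dRing alone (0.426%). The widest shared region covered 10637 bp at 3L 5104520 to 5115156, with Ser2P and GAF peaks and neither Rpb3 nor M1BP. The widest E(z)-alone region covered 6299 bp at X 3648791 to 3655089, and the widest dRing-alone region was a 19819 bp peak that began at the first base of 3L.

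Shared regions also ranked higher in both lists. The deposited score has no stated unit, so each peak was ranked on the arms of its own list and given a percentile, where 100 is the highest score. A shared region took the percentile of its highest peak in each list. In the dRing list, shared regions had a median percentile of 55.7 (quartiles 30.6 and 79.6) and dRing-alone regions 36.6 (17.4 and 59.6). In the E(z) list, the medians were 62.6 (36.4 and 84.0) for shared and 39.0 (18.3 and 63.3) for E(z)-alone regions. All of the 10 highest dRing peaks and 89 of the 100 highest lay on E(z), whereas 8 of the 10 and 74 of the 100 highest E(z) peaks lay on dRing.

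**Figure D1:**
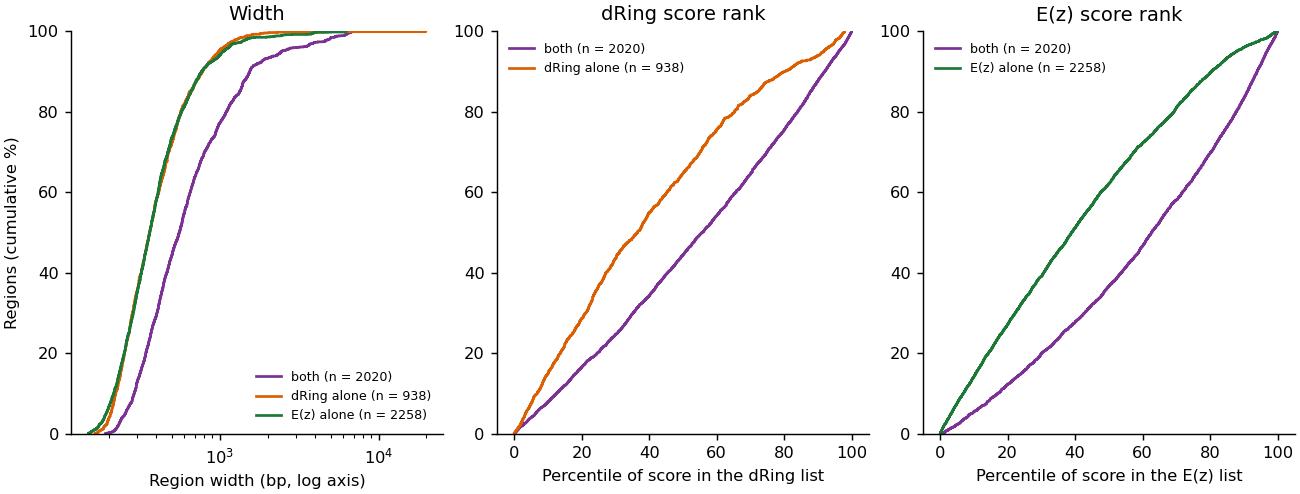
Cumulative share of regions (%) by region width in bp on a log axis (left), by percentile of score within the dRing list (middle) and within the E(z) list (right), for shared (both), dRing-alone and E(z)-alone regions. The curves of the 2 alone classes nearly coincide in width, with medians of 362.5 and 363 bp, and the shared curve lies to the right in all 3 panels.

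The overlap was larger at higher score in each list. From the lowest to the highest quartile of dRing score, 55.0%, 65.8%, 72.0% and 84.6% of dRing peaks lay on E(z). For E(z) peaks on dRing, the shares were 30.1%, 39.7%, 50.7% and 69.9%. Neither list reached full overlap even in its top quartile, where 118 dRing peaks and 325 E(z) peaks had no partner. Peaks of the top quartile were also wider than those of the lowest, at medians of 620.5 against 342 bp for dRing and 652 against 318 bp for E(z). Across the 2020 shared regions, the dRing and E(z) percentiles had a Spearman rho of 0.504, a description over regions that share their libraries and not a test.

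**Figure D2:**
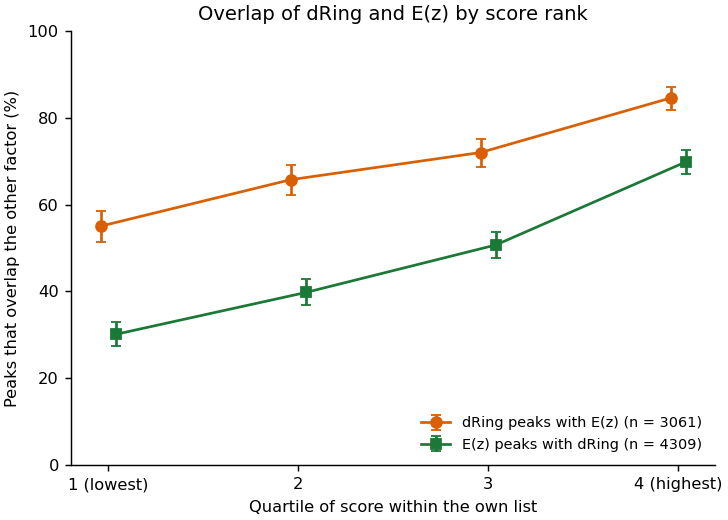
Share of peaks (%) that overlap the other factor, by quartile of score within the own list, for 3061 dRing peaks (circles) and 4309 E(z) peaks (squares). Bars are exact 95% intervals, and the shares run from 55.0 to 84.6% for dRing and from 30.1 to 69.9% for E(z).

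The next comparison asked which polymerase and promoter factor peaks of S2 cells lay in each class. None of these 4 lists was used to form the classes. As a background, the share was also taken over all arm regions merged from the other 5 S2 lists, which include the dRing and E(z) peaks. These background regions were not matched to the classes in width. Rpb3 lay at 57.1% of such background regions, Ser2P at 18.6%, M1BP at 38% and GAF at 33.6%. No such share was taken for combinations of these factors, apart from M1BP and Ser2P without Rpb3 below. Read against these shares, E(z)-alone regions were the class with most Rpb3, shared regions the class with most Ser2P, M1BP and GAF, and dRing-alone regions the class with least of Rpb3, Ser2P and M1BP. With only the higher-scoring 50% of all 6 lists, some of these orders changed sign. There, the share in shared minus dRing-alone regions was -12.5 percentage points for Rpb3 (6.99 over all regions), that in shared minus E(z)-alone regions was -3.95 for GAF, and that in E(z)-alone minus dRing-alone regions was -0.731 for M1BP. With dRing and E(z) lists of equal length, shared minus dRing-alone was -4.18 for Rpb3, and E(z)-alone minus dRing-alone was -0.136 for GAF. Each of these statements describes these lists, since 1 list per factor allowed no test over samples.

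Rpb3 lay at 1404 of 2258 E(z)-alone regions (62.2%, 95% interval 60.1 to 64.2%), at 867 of 2020 shared regions (42.9%, 40.7 to 45.1%) and at 337 of 938 dRing-alone regions (35.9%, 32.9 to 39.1%). The shared and dRing-alone classes thus lay below the background of 57.1%, and the E(z)-alone class lay above it. Rpb3 without Ser2P lay at 46.7% of E(z)-alone, 27.8% of shared and 30.2% of dRing-alone regions. On the arms the Ser2P list held 1670 peaks against 9314 of Rpb3. Lack of a Ser2P peak at Rpb3 thus does not by itself show polymerase that is not elongating. Rpb3 together with Ser2P lay at 15.5%, 15.1% and 5.76%.

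Ser2P lay at 997 shared regions (49.4%, 95% interval 47.2 to 51.6%), 638 E(z)-alone regions (28.3%, 26.4 to 30.2%) and 86 dRing-alone regions (9.17%, 7.40 to 11.2%). The dRing-alone class was below the background of 18.6% and the others above it. In the shared class most of these regions had no Rpb3 peak. Rpb3 belongs to the same enzyme that carries Ser2P, so a missing Rpb3 peak does not show polymerase without this subunit. Ser2P without Rpb3 lay at 692 shared regions (34.3%), against 288 E(z)-alone (12.8%) and 32 dRing-alone regions (3.41%).

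M1BP lay at 1297 shared regions (64.2%, 95% interval 62.1 to 66.3%), 962 E(z)-alone regions (42.6%, 40.6 to 44.7%) and 242 dRing-alone regions (25.8%, 23.0 to 28.7%). GAF differed least between the classes, at 999 shared (49.5%, 47.3 to 51.7%), 979 E(z)-alone (43.4%, 41.3 to 45.4%) and 350 dRing-alone regions (37.3%, 34.2 to 40.5%), all above its background of 33.6%. In dRing-alone regions GAF without M1BP (294 regions, 31.3%) was more frequent than M1BP without GAF (186 regions, 19.8%). In E(z)-alone regions the counts were close, at 689 (30.5%) and 672 (29.8%), and in shared regions M1BP without GAF (748, 37.0%) exceeded GAF without M1BP (450, 22.3%).

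**Figure D3:**
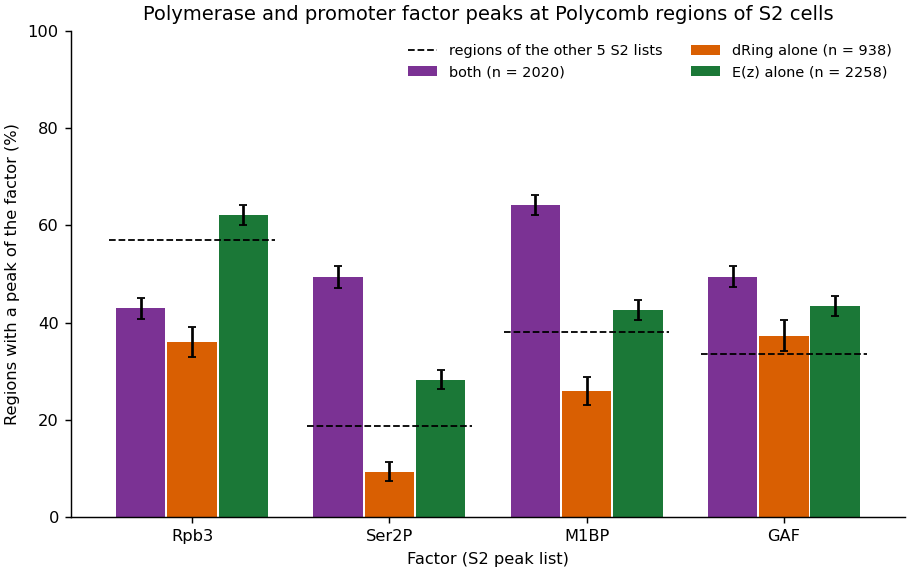
Share of regions (%) in each class that overlap an S2 peak of Rpb3, Ser2P, M1BP or GAF, with exact 95% intervals as bars. Dashed lines give the share among arm regions merged from the other 5 S2 lists, which is 57.1% for Rpb3, 18.6% for Ser2P, 38% for M1BP and 33.6% for GAF. E(z)-alone regions stand highest for Rpb3 and shared regions for the other 3 factors.

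Regions with none of the 4 factors were most frequent in the dRing-alone class, with 305 of 938 (32.5%, 95% interval 29.5 to 35.6%), against 191 of the E(z)-alone (8.46%, 7.34 to 9.68%) and 65 of the shared regions (3.22%, 2.49 to 4.08%). The most frequent combinations in E(z)-alone regions were Rpb3 with M1BP (376 regions, 16.7%) and Rpb3 with GAF (349, 15.5%). In dRing-alone regions they were GAF alone (177, 18.9%) and Rpb3 with GAF (104, 11.1%). In shared regions they were Ser2P with M1BP and GAF (291, 14.4%) and Ser2P with M1BP (242, 11.98%), both without Rpb3.

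The shared class therefore held a large group of regions with M1BP and Ser2P and no Rpb3. They numbered 533 (26.4%, 95% interval 24.5 to 28.4%), against 94 E(z)-alone (4.16%, 3.38 to 5.07%) and 10 dRing-alone regions (1.07%, 0.512 to 1.95%). Over all arm regions merged from the other 3 S2 lists (dRing, E(z) and GAF), the share with this profile was 7.69% (636 of 8267). That set includes the dRing and E(z) regions themselves, so it is not a reference apart from the classes. These 533 regions had a median width of 981 bp, against 464 bp for the other shared regions. Their median percentile was 79.6 in the dRing list and 90.6 in the E(z) list, against 44.6 and 51.7. A neighbouring region began within 500 bp of 73.9% of them, against 24.7% of the others. GAF lay at 54.6% of them and at 47.6% of the others.

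Regions of this kind filled the top of the shared class. Of the 100 shared regions in the highest 10% of both lists, 97 had M1BP, 96 had Ser2P, 62 had GAF and 5 had Rpb3. All 5 shared regions with the highest mean percentile carried Ser2P and M1BP and lacked Rpb3. The highest lay at 3R 11451365 to 11452035, with a dRing score of 249.7 and an E(z) score of 248.6, and 289 bp separated it from the next region. It was followed by 2L 21354485 to 21355055, 2L 11720429 to 11721014, 2L 1226894 to 1227672 and 2L 11713496 to 11715052, which lay 292, 285, 150 and 146 bp from their nearest region. Of the 136 shared regions over 2000 bp wide, 130 had Ser2P, 97 had M1BP, 57 had GAF and 14 had Rpb3.

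Within the shared class, Rpb3 was less frequent at higher rank. From its lowest to its highest quartile by mean percentile (505 regions each), Rpb3 lay at 69.9%, 58.0%, 32.7% and 11.1% of regions. Over the same quartiles, Ser2P lay at 33.5%, 37.6%, 46.9% and 79.4%, and M1BP at 41.6%, 55.8%, 71.9% and 87.5%. Within E(z)-alone regions, in contrast, Rpb3 stayed between 60.5% and 63.8% over the quartiles of E(z) percentile, and Ser2P went from 18.4% to 38.4%. Within dRing-alone regions Rpb3 lay at 44.0% of the lowest and 32.8% of the highest quartile, with overlapping intervals (37.6 to 50.6% and 26.8 to 39.2%).

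Because regions with M1BP and Ser2P and no Rpb3 make up a large part of the shared class, the factor shares were also taken without them. To keep the selection apart from the S2 values, regions were left out by the same profile, M1BP and Ser2P without Rpb3, in the lists of the S2-AbdA cells. This removed 581 shared, 154 E(z)-alone and 10 dRing-alone regions, of which 480, 62 and 2 had the profile in S2 cells too. In the remaining 1439 shared regions Rpb3 lay at 57.9% (95% interval 55.3 to 60.5%), Ser2P at 30.7% (28.3 to 33.2%), M1BP at 53.8% (51.2 to 56.4%) and GAF at 48.7% (46.1 to 51.3%). In the remaining 2104 E(z)-alone regions the shares were 64.4%, 25.7%, 39.6% and 44.8%. The gap between shared and E(z)-alone regions thus narrowed from 19.3 to 6.56 percentage points for Rpb3, from 21.1 to 5.05 for Ser2P and from 21.6 to 14.1 for M1BP, and each kept its direction. The lists of the 2 lines come from the same antibodies, and the removal raises Rpb3 and lowers Ser2P partly by construction.

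A choice that used no factor list gave the same order for Rpb3, Ser2P and M1BP. Among regions with no other region within 1 kb, Rpb3 lay at 53.0% of 1093 shared, 64.3% of 1609 E(z)-alone and 34.3% of 689 dRing-alone regions. Ser2P lay at 29.8%, 22.2% and 6.97%, M1BP at 63.3%, 47.8% and 28.6%, and GAF at 44.6%, 41.8% and 33.2%. A window of 500 bp at each region's centre, equal for all classes, gave 42.2%, 62.9% and 36.2% for Rpb3 and 49.2%, 28.3% and 9.28% for Ser2P, so the order of the classes was the same at equal width.

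**Figure D4:**
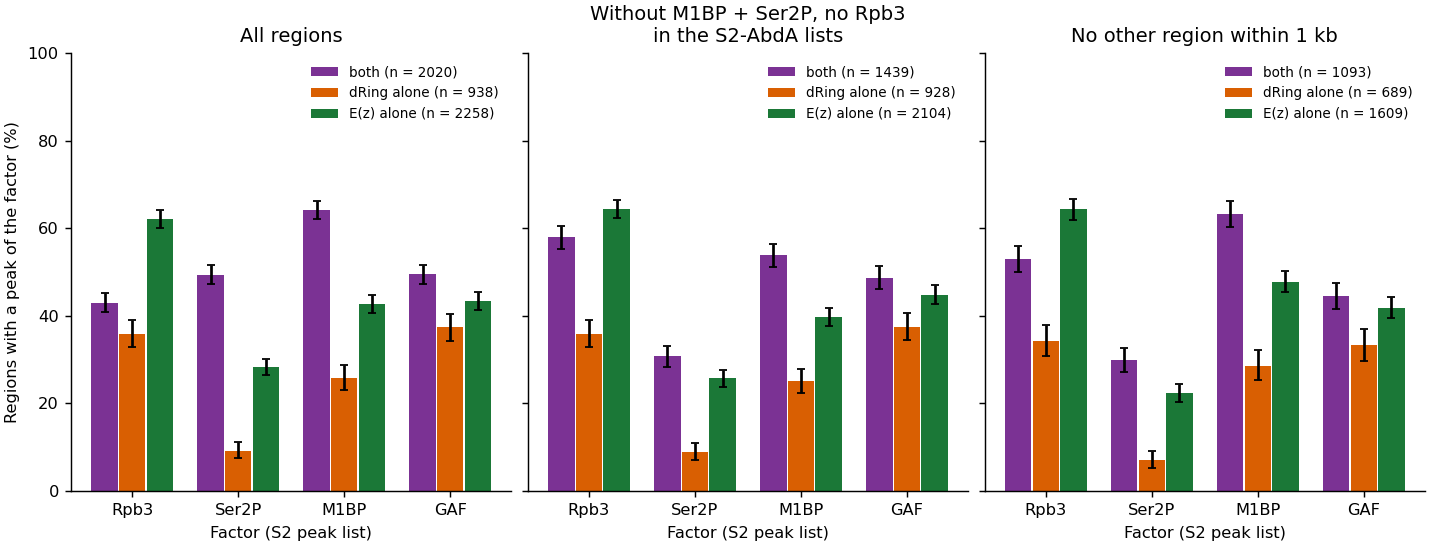
Share of regions (%) with an S2 peak of each factor, with exact 95% intervals, in all regions (left), without regions that had M1BP and Ser2P and no Rpb3 in the S2-AbdA lists (middle), and among regions with no other region within 1 kb (right). For shared regions Rpb3 goes from 42.9% to 57.9% and 53.0%, and Ser2P from 49.4% to 30.7% and 29.8%, while the dRing-alone bars change little.

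The strongest regions of the alone classes differed from each other in their most frequent factor. The 56 dRing-alone regions in the highest 10% of the dRing list had GAF in 36 cases, Rpb3 in 22, M1BP in 11 and Ser2P in 2. The 91 E(z)-alone regions in the highest 10% of the E(z) list had M1BP in 69 cases, Rpb3 in 48, Ser2P in 33 and GAF in 27. GAF was thus the most frequent of the 4 factors at the strongest dRing-alone regions and the least frequent at the strongest E(z)-alone regions. These regions were wider than their classes as a whole, with median widths of 631 bp for dRing alone and 578 bp for E(z) alone, against 362.5 and 363 bp. Their median distances to the next region were 3423 and 2967 bp, shorter than the 4117 and 3825 bp of all regions of these classes, and 35.7% and 35.2% had a neighbour within 1 kb, against 26.5% and 28.7%.

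The highest dRing-alone region lay at 3L 16581183 to 16581815 (score 137.0), on Rpb3 and M1BP peaks, and the nearest E(z) peak was 3730 bp away. The region at 3R 20906040 to 20906648 (score 135.5) overlapped GAF only, as did 2L 3835102 to 3835847 (score 133.2) and X 9586560 to 9587115 (score 129.1). In that order, they lay 5271, 21512 and 645 bp from the nearest E(z) peak. The fifth, at 3R 2508827 to 2509393 (score 125.2), overlapped none of the 4 factors and lay 22843 bp from the nearest E(z) peak. All 5 had a dRing peak in the S2-AbdA list, and 2 of them, those on 2L and X, also had an E(z) peak there.

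The highest E(z)-alone region lay at 2L 347779 to 348488 (score 270.1), on Ser2P, M1BP and GAF peaks and 187 bp from a dRing peak. The next was X 13277768 to 13278247 (score 228.6), on Rpb3 and M1BP and 11722 bp from dRing. The third, at 3L 2554128 to 2554657 (score 200.1), lay on Rpb3, Ser2P and M1BP and 22293 bp from dRing. The others were 2L 21502908 to 21504330 (score 178.9), on Ser2P only, and 3R 6156822 to 6157619 (score 172.2), on Rpb3 and M1BP. All 5 had an E(z) peak in the S2-AbdA list, and those on X and 2L had a dRing peak there as well. Both 2L regions thus lay close to dRing, the second of them 342 bp away, whereas the other 3 lay much farther away.

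Some strong shared regions did carry Rpb3 without Ser2P, and 3 were picked after their values were seen. The highest by mean percentile lay at 2L 1644276 to 1645044, on Rpb3 and GAF, with a dRing percentile of 99.2 and an E(z) percentile of 90.8. The region at 2L 10396036 to 10396452 lay on Rpb3 and M1BP, with percentiles of 91.3 and 94.6. The region at 2L 21397175 to 21397717 also lay on Rpb3 and M1BP, with percentiles of 92.2 and 92.1.

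Polycomb sites are known to gather in domains, and the spacing of the regions was described for each class. Another region of any class lay within 10 kb of 1609 shared regions (79.7%, 95% interval 77.8 to 81.4%), 664 dRing-alone regions (70.8%, 67.8 to 73.7%) and 1626 E(z)-alone regions (72.0%, 70.1 to 73.9%). The median distance to the nearest region was 1262 bp for shared, 4117 bp for dRing-alone and 3825 bp for E(z)-alone regions. At short range the classes were further apart, with 37.7% of shared, 19.7% of dRing-alone and 21.3% of E(z)-alone regions having a neighbour within 500 bp. Without the regions that had M1BP and Ser2P and no Rpb3 in the S2-AbdA lists, the excess of shared over E(z)-alone regions within 10 kb went from 7.64 to 1.74 percentage points, and that over dRing-alone regions from 8.86 to 1.85. The Newcombe 95% intervals of the remaining differences, -1.36 to 4.79 and -1.91 to 5.68, include 0. Distances were recomputed among the regions that were kept, so the removal also took away some of their neighbours. Of the removed shared regions, 71.9% had a neighbour within 500 bp, against 23.8% of the other shared regions. The excess thus falls partly by construction.

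**Figure D5:**
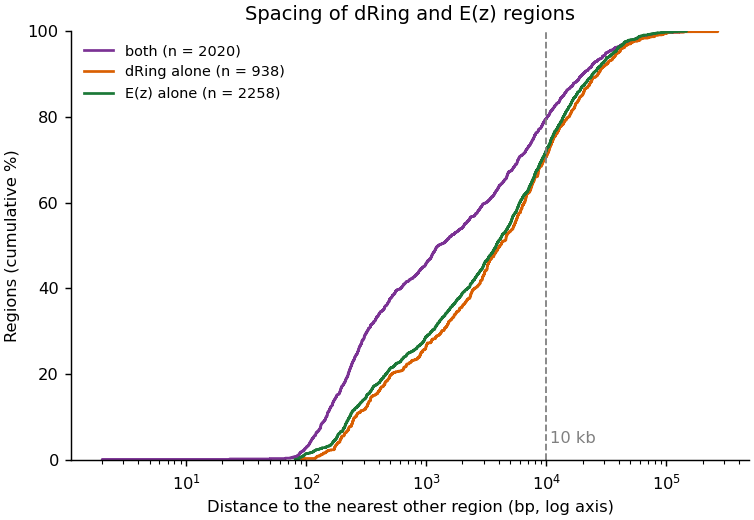
Cumulative share of regions (%) by distance in bp to the nearest other region of any class, on a log axis, for shared (both), dRing-alone and E(z)-alone regions. The dashed line marks 10 kb, the gap used for clusters. The shared curve lies to the left, with a median of 1262 bp against 4117 and 3825 bp.

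In each class, a nearest neighbour of the same class was more frequent than that class is among all regions. Among regions with a neighbour within 10 kb, the nearest one was also shared for 51.1% of shared regions and also E(z)-alone for 54.1% of E(z)-alone regions. For dRing-alone regions the nearest neighbour was dRing-alone in 32.1%, shared in 38.6% and E(z)-alone in 29.4% of cases. Of all regions, 18.0% were dRing-alone, 38.7% shared and 43.3% E(z)-alone. Shared neighbours of dRing-alone regions were thus about as frequent as shared regions are in general. A region of the same class lay within 10 kb of 56.9% of shared, 52.2% of E(z)-alone and 33.0% of dRing-alone regions, and the larger classes have more members to be near.

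Joined over gaps of up to 10 kb, the 5216 regions formed 2461 clusters. Of these, 1317 held 1 region and 1144 held 2 or more, with a median span of 7398 bp for the latter. Of the multi-region clusters, 646 held 2 classes, 141 held 3 and 357 held 1. The share of mixed clusters that the class sizes alone would give was not taken, so these counts do not show a preference for mixing. The pure clusters comprised 190 of E(z) alone, 131 of shared regions and 36 of dRing alone. Clusters of 5 or more regions numbered 207 and held 1441 regions (27.6%).

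The cluster with most regions lay at 2L 21451058 to 21543678. It spanned 92621 bp with 29 regions, 11 shared and 18 of E(z) alone, and all 29 carried Ser2P while none carried Rpb3, M1BP or GAF. The second, at 3R 8274510 to 8334909, held 18 regions, of which 13 were shared, 14 had Ser2P, 7 had M1BP, 7 had GAF and 5 had Rpb3. The cluster at 2L 19114247 to 19166309 held 15 regions, 9 of them E(z) alone and 9 with Rpb3. The cluster at 3L 603787 to 649779 also held 15, of which 11 were shared, 14 had Rpb3 and 12 had GAF. The cluster at 2L 1629354 to 1668946 was led by dRing: 8 of its 14 regions held dRing alone, and 9 of the 14 had GAF, 7 had Rpb3, 1 had Ser2P and 1 had M1BP. The 5 clusters with most regions thus had quite different factor makeups.

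The classes were last looked up in the dRing and E(z) lists of the S2-AbdA cells, which took no part in forming them. Line and input code cannot be told apart in these lists. Over all arm regions merged from the 6 S2 lists, 23.6% had an E(z) peak and 22.4% a dRing peak of S2-AbdA cells. This set holds the dRing and E(z) regions too, so it is not a reference apart from the classes. An E(z) peak was found there at 1752 of the shared regions (86.7%, 95% interval 85.2 to 88.2%), at 1518 of the E(z)-alone regions (67.2%, 65.2 to 69.2%) and at 147 of the dRing-alone regions (15.7%, 13.4 to 18.2%). A dRing peak was found at 1295 shared (64.1%, 62.0 to 66.2%), 443 dRing-alone (47.2%, 44.0 to 50.5%) and 622 E(z)-alone regions (27.5%, 25.7 to 29.4%). Most E(z)-alone regions thus had no dRing peak there, and most dRing-alone regions had no E(z) peak.

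Regions of high rank in the S2 list recurred more often than those of low rank. From the lowest to the highest quartile of E(z) percentile, E(z)-alone regions had an E(z) peak in S2-AbdA cells in 34.8%, 61.1%, 76.2% and 96.8% of cases, whereas their dRing share lay between 24.4% and 30.3% in all 4 quartiles. For dRing-alone regions the dRing share was 38.9%, 34.5%, 46.6% and 68.9%, and their E(z) share was 22.2%, 17.0%, 13.7% and 9.79%. The strongest regions of each alone class thus came back with their own factor more often than the weakest. In the highest quartile of shared regions, 481 of 505 had dRing and 505 of 505 had E(z) in the S2-AbdA lists.

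HA-AbdA peaks of the S2-AbdA cells lay at 57.2% of shared, 60.1% of dRing-alone and 68.5% of E(z)-alone regions, against 58% of all arm regions merged from the 6 S2 lists. The intervals were 55.0 to 59.4% for shared, 56.9 to 63.3% for dRing-alone and 66.6 to 70.4% for E(z)-alone regions. The 58% includes the regions of these classes, so the intervals give no test against it. HA-AbdA peaks lay at 65 of the 581 shared regions with M1BP and Ser2P and no Rpb3 in the S2-AbdA lists (11.2%, 95% interval 8.74 to 14.0%) and at 1091 of the other 1439 (75.8%, 73.5 to 78.0%). The 581 were chosen for lacking Rpb3 in the same cells, and the HA-AbdA share of other regions without Rpb3 was not taken. The lists also differed in the share of their peaks that lay outside the arms. It was 0.386% for HA-AbdA and 0.598% for Rpb3 in S2 cells, against 37.4%, 34.9%, 20.1%, 61.2% and 23.7% in the S2 lists of dRing, E(z), M1BP, Ser2P and GAF. For GAF it was 0.609% in the S2-AbdA list. The part of this in the factor shares of the classes was not tested.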

How the data were processed

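Peak lists of dRing, E(z), Rpb3, Ser2P, M1BP and GAF from S2 cells were analysed, with the S2-AbdA lists for comparison. BWA 0.7.12, MACS2 and build dm3 are named for the authors' work in the submitters' processing notes. Neither the settings nor the use of inputs nor the way replicates were combined is given in the sources used here. Every deposited peak has a score above 0, whose unit is not stated, and it served only to rank peaks within a list. In the dRing and E(z) lists, 125 and 152 scores had more than 6 decimals, unlike the rest. The reference at hand was Release 6, whose 3R is 32079331 bp long, against a largest peak end of 27898841 here, so no gene or sequence was taken from it.

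The labels gave each sample's line and antibody, which define its group. The lists were handled in pandas 2.3.3 and numpy 2.4.6 under Python 3.11.15, with scipy 1.17.1 for intervals and matplotlib 3.10.9 for figures. Regions chained dRing and E(z) peaks that overlap by 1 bp or more, and clusters joined regions over gaps of up to 10 kb. Differences between shares have Newcombe 95% intervals and medians have order-statistic intervals. No p-value was computed. Named regions were the 5 with the highest percentile in each class, the widest of each class and the 5 clusters with most regions, and 3 further regions were picked after their values were seen. The classes, lists and alternatives were chosen with earlier results of these data known. Region classes were checked on simulated peaks, and 30 overlap counts were compared with bedtools 2.31.1, of which 0 differed.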

Additional observations from a re-analysis of the deposited data

Results flagged for a closer look

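Many peaks of both factors lay on chromosomes M, U, Uextra and those ending in Het, which the comparisons above did not use. In S2 cells these were 1830 dRing peaks and 2310 E(z) peaks. Joined by the same rule of 1 bp, they formed 2544 regions, of which 1538 held peaks of both factors (60.5%, exact 95% interval 58.5 to 62.4%), 253 held dRing alone (9.94%, 8.81 to 11.2%) and 753 held E(z) alone (29.6%, 27.8 to 31.4%). The regions with both factors had a median width of 532 bp there, and Ser2P lay at 97.1% of them, M1BP at 69.2%, GAF at 53.6% and Rpb3 at 0.845%. Among the E(z)-alone regions outside the arms, Ser2P lay at 74.4%, GAF at 14.5% and M1BP at 13.5%, and among the dRing-alone regions at 88.9%, 56.1% and 3.95%. Over all regions outside the arms merged from the other 5 S2 lists, Ser2P lay at 71.8%, GAF at 33.7%, M1BP at 33.1% and Rpb3 at 0.868%, and the whole Rpb3 list had 56 peaks there against 2639 of Ser2P. Rpb3 was thus rare over all such regions and in each class, at 0.791% of dRing-alone and 0.266% of E(z)-alone regions. The Ser2P share of the E(z)-alone class was close to that over all of the regions outside the arms.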

How the results depend on the processing

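Each alternative listed beforehand was run, and 2 more were chosen after seeing the data. Of 175 values compared with the reported ones, 103 stayed within the reported value's 95% interval or, for counts of regions, within 1.5 times the reported count, 67 moved further and 5 differences changed sign. The cause was not tested for any of them. Differences below are in percentage points, each the first class minus the second.

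With the higher-scoring 50% of the dRing and E(z) lists, there were 878 shared, 575 dRing-alone and 1256 E(z)-alone regions, with median widths of 689, 443 and 441 bp. Then 62.4% of dRing peaks lay on E(z) and 41.7% of E(z) peaks on dRing. The excess of shared regions within 10 kb of another was 26.1 over dRing alone and 20.9 over E(z) alone, and their excess with E(z) in S2-AbdA cells was 5.18 over E(z) alone. With the higher-scoring 50% of all 6 lists, 3 differences reversed: Rpb3 in shared minus dRing-alone regions (-12.5), GAF in shared minus E(z)-alone regions (-3.95) and M1BP in E(z)-alone minus dRing-alone regions (-0.731). There, shared minus E(z) alone was -31.3 for Rpb3, 34.1 for Ser2P and 9.29 for M1BP, shared minus dRing alone was 57.1 for Ser2P, 8.56 for M1BP and 0.132 for GAF, and E(z) alone minus dRing alone was 18.8 for Rpb3 and 23.0 for Ser2P.

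With E(z) limited to the length of the dRing list, the overlaps were 57.0% of dRing and 54.5% of E(z) peaks, E(z)-alone regions numbered 1394, and median widths were 586 bp for shared and 398 bp for E(z)-alone regions. Rpb3 in shared minus dRing-alone regions (-4.18) and GAF in E(z)-alone minus dRing-alone regions (-0.136) reversed. Shared minus E(z) alone was -22.3 for Rpb3 and 26.4 for M1BP, shared minus dRing alone was 6.09 for GAF, and E(z) alone minus dRing alone was 18.1 for Rpb3.

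With all chromosomes, 75.6% of dRing and 54.5% of E(z) peaks overlapped and 3558 regions were shared. With peak centres within 250 bp, the overlaps were 61.0% and 43.3%, and the median percentiles of the alone classes were 43.1 (dRing) and 41.3 (E(z)). For neighbours within 5 kb, shared regions exceeded dRing alone by 14.0 and E(z) alone by 12.2, and within 20 kb by 4.83 and 2.66.

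Without regions that had M1BP and Ser2P and no Rpb3 in the S2-AbdA lists, shared regions had a median width of 465 bp and percentiles of 44.4 (dRing) and 50.7 (E(z)). Distances to neighbours were recomputed among the regions kept. Shared minus E(z) alone was -6.56 for Rpb3, 5.05 for Ser2P, 14.1 for M1BP, 1.74 for neighbours within 10 kb and 15.7 for E(z) in S2-AbdA cells. Shared minus dRing alone was 22.0 for Rpb3, 21.9 for Ser2P, 28.8 for M1BP, 1.85 for neighbours and 7.04 for dRing in S2-AbdA cells. Among regions with no other region within 1 kb, median widths were 432 bp for shared and 341 bp for E(z)-alone regions, shared percentiles were 50.02 (dRing) and 52.6 (E(z)), and the E(z)-alone percentile was 36.0. Shared minus E(z) alone was -11.4 for Rpb3, 7.58 for Ser2P, 15.5 for M1BP and 2.73 for GAF. Shared minus dRing alone was 18.7 for Rpb3, 22.9 for Ser2P, 34.7 for M1BP and 6.64 for dRing in S2-AbdA cells. E(z) alone minus dRing alone was 30.1 for Rpb3 and 15.3 for Ser2P.

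No paired analysis was possible because each list covers both replicates of its antibody and no column carries a replicate number. Leaving out a replicate could not be done for the same reason. Read depth is unknown, so a missing peak cannot be told apart from one under the caller's threshold.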
